A study of Mus musculus with 15 samples.

Results

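Macrophages of the mouse colon were followed here through 10 genes that are widely used to mark them: C1qa, C1qb, C1qc, Lyz2, Adgre1, Csf1r, Cd68, Mrc1, Itgax and Marco. They were taken by name from a table of 56859 genes. Each of the 10 was in the table, and each passed the filter on low counts, which left 18038 genes for testing. Colons of male C57BL/6J mice, 6 to 10 weeks old, were sampled in a model of colitis-associated cancer, and their RNA was sequenced in 15 libraries of 13548661 to 17919613 counts. The model joins the carcinogen azoxymethane (AOM) to cycles of dextran sulfate sodium (DSS) in the drinking water, which injures the epithelium.

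The libraries fell into 5 groups of 3. The APX3330 group received APX3330 (E3330), which blocks the redox activity of the protein APE1/Ref-1, by injection into the peritoneum at 25 mg/kg on the days of DSS. The saline D27, saline D48 and saline D100 groups received saline instead and were labelled with day 27, day 48 or day 100. The Control group is labelled as wild type C57BL/6 only. The protocol shared by all samples lists AOM at 10 mg/kg for day 0 and then 2.5% DSS in 3 courses, from day 7 to 11, from day 28 to 32 and from day 49 to 53, so whether Control mice received AOM or DSS is not settled by the labels. The APX3330 group carries no day in its labels, so it was set beside every saline day, and drug and day cannot be told apart in these comparisons. The titles place the D48 group in cycle 1 and the D100 group in cycle 2. The labels do not say whether libraries of a group are separate animals; p-values then reflect only how much these libraries vary, which may be technical. Libraries of RNA from whole tissue hold every cell type of the colon, and fewer macrophages and less RNA of a gene per macrophage cannot be told apart in them.

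Macrophages of the gut wall are renewed in large part from blood monocytes. They take up bacteria and dying cells and shape the response to injury. Their survival depends on the receptor Csf1r, whose ligands are Csf1 and Il34. Their identity depends on the transcription factor PU.1, encoded by Spi1. C1q, a protein of the complement system, is assembled from the chains encoded by C1qa, C1qb and C1qc. In most tissues it is made by macrophages rather than by the liver. The other members mark uptake and adhesion: lysozyme (Lyz2), the adhesion receptor F4/80 (Adgre1), the lysosomal protein macrosialin (Cd68), the mannose receptor (Mrc1), the integrin CD11c (Itgax) and the scavenger receptor Marco. None is exclusive to macrophages. Adgre1 is also known from eosinophils, Itgax from dendritic cells, Mrc1 from lymphatic endothelium and Lyz2 from neutrophils.

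The start-site regions of 4 members are shown because C1qb and C1qc changed together, Mrc1 followed a course of its own, and Cd68 held both the PU.1 core and AP-1, of 4 motifs searched. RefSeq (GRCm38.p6) gave a promoter window for 7 of the 10 members, and C1qa, Adgre1 and Csf1r had no entry. The letters are the bases before the annotated start, in the gene's own direction, and capitals mark the PU.1 core GAGGAA or its reverse complement and the AP-1 motif TGANTCA. C1qb is shown from chr4:136886201-136886450 and C1qc from chr4:136893066-136893164, both on the minus strand. Mrc1 is shown from chr2:14229164-14229391 on the plus strand and Cd68 from chr11:69666171-69666420 on the minus strand.
C1qb: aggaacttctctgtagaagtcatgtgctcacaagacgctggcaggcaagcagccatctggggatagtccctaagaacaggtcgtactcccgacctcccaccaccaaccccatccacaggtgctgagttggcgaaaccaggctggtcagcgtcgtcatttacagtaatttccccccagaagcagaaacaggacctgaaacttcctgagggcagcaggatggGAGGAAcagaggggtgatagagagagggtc
C1qc: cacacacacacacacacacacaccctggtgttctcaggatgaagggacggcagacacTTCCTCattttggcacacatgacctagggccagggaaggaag
Mrc1: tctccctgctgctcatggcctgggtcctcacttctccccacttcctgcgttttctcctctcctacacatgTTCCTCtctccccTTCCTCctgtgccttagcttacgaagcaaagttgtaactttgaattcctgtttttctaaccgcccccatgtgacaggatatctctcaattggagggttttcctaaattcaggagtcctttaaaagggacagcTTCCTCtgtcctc
Cd68: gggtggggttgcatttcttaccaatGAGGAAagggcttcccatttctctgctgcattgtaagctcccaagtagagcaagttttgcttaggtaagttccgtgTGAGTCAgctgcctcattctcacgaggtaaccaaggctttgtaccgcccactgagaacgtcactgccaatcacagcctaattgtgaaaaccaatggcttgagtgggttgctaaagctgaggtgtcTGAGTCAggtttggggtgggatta
Searched over both strands in the 250 bases before the RefSeq start, the PU.1 core stood in 5 of the 7 windows (Marco, Mrc1, C1qb, C1qc and Cd68) and in 23.3% of 32851 windows of that length over all genes. Mrc1 held 3 copies. AP-1 stood in 2 of the 7 (Cd68, with 2 copies, and Itgax) and in 6.75% of all windows. The C/EBP motif TTNNGNAA stood in 6 of the 7 (all but C1qb), with copies that overlap in Marco and Mrc1, and in 36.8% of all windows. The E-box CANGTG stood in 4 of the 7 (Mrc1, C1qb, C1qc and Lyz2) and in 39.5% of all windows. These matches describe the letters only, and binding was not measured.

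Lyz2 has a close copy, Lyz1, which in the mouse is the lysozyme of Paneth cells. The copies lie 5475 bases apart on chromosome 10, Lyz2 at 117277331 to 117282321 and Lyz1 at 117287797 to 117292868 (GRCm38, GENCODE M21, both on the minus strand). Their coding sequences, 447 bases each, were identical at 425 positions (95.1%), with a longest identical run of 118 bases. The opening 120 coding bases are shown because they hold 11 of the 22 differences, marked by capitals.
Lyz2: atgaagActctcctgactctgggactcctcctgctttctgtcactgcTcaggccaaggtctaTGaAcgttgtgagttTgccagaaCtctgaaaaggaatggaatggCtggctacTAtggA
Lyz1: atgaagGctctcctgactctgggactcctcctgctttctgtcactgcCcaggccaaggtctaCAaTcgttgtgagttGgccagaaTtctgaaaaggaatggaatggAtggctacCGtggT
How the authors' counting treated reads that match both copies is not given in the sources used here, so Lyz2 and Lyz1 values are uncertain by what they may share.

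Levels are given as CPM, counts scaled to a common library size with edgeR's TMM factors. All 10 genes differed over the 5 groups by edgeR's F test (Benjamini-Hochberg adjusted p below 0.05 over all genes tested), as did 37.3% of the genes tested. Against Control, a gene is called higher or lower by edgeR's quasi-likelihood test at the same threshold. Of the 10 genes 3 were called higher in APX3330 colons, 7 at saline D27, 8 at saline D48 and 9 at saline D100. Of all genes tested 7.16% were called higher in APX3330, 10.2% at saline D27, 14.3% at saline D48 and 11.4% at saline D100. None of the 10 was called lower in any of these comparisons, where 8.18%, 9.36%, 13% and 10.5% of all genes tested were, in the same order. The median log2 fold change of the 10 genes was 0.39 in APX3330, 0.96 at saline D27, 1.54 at saline D48 and 0.96 at saline D100. Over all genes tested it lay between -0.0013 and 0.015. The 4 comparisons share the Control libraries.

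**Figure D1:**
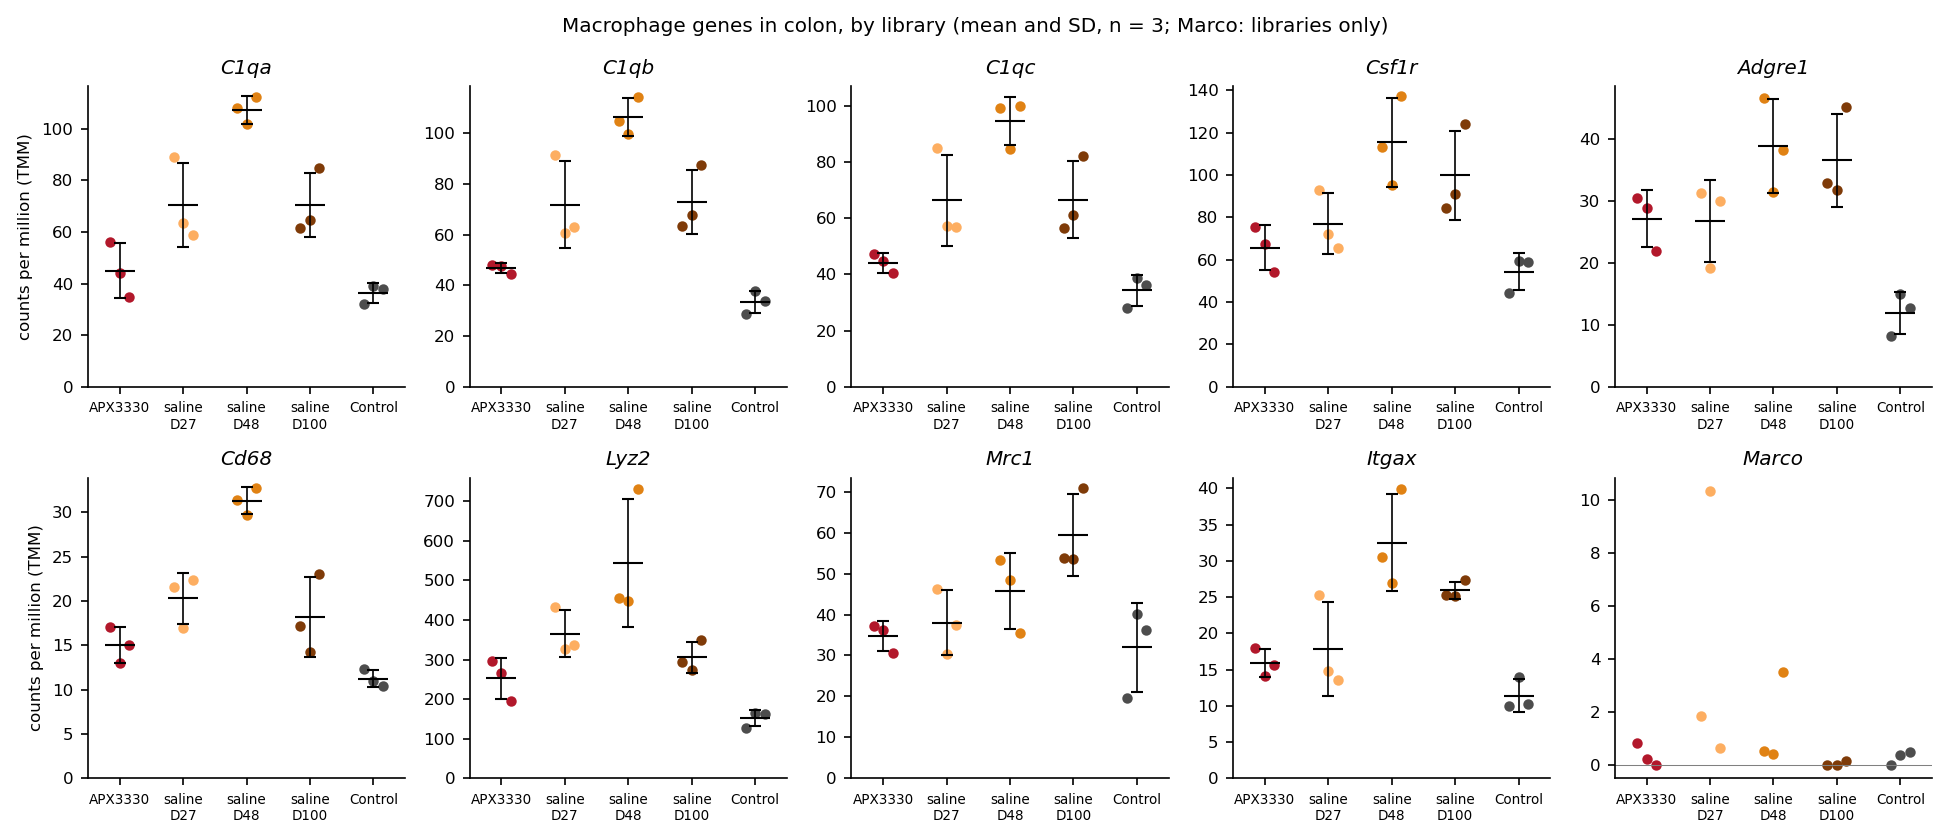
CPM (TMM-scaled, linear axes) of the 10 macrophage genes in each of the 15 libraries, 3 points per group with the mean and SD in black (Marco: points alone). C1qa in saline D48 lies between 102 and 112 CPM, above every other library, and Marco reaches 10.3 CPM in 1 saline D27 library.

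These calls stand beside changes in other cells and in tissue makeup. The summed level of 8 genes shared by leukocytes (Ptprc, Laptm5, Coro1a, Arhgdib, Cd53, Cd52, Rac2 and Vav1, which macrophages also express) was 192 to 297 CPM in APX3330, 340 to 520 CPM in saline D27, 329 to 1055 CPM in saline D48, 313 to 390 CPM in saline D100 and 139.8 to 170 CPM in Control. With each library's mean log2 level of these genes as a covariate, 1, 0, 1 and 2 of the 10 macrophage genes were called higher than Control in APX3330 and at saline D27, D48 and D100. The sum was lower in every Control library than in any other, so this level varied with group. The share of all genes called with this covariate is not given, here or below. Smooth muscle markers summed to 4286 to 5615 CPM in APX3330, 7196 to 9689 CPM in saline D27, 4928 to 5868 CPM in saline D48, 5034 to 6655 CPM in saline D100 and 9962 to 10231 CPM in Control. Markers of squamous epithelium and skeletal muscle, tissues that lie next to the colon at its end, were high in Control replicates 1 and 3 (skeletal muscle markers summed to 1788 and 809.6 CPM), and squamous markers in saline D100 replicate 1 (548 CPM). Saline D48 replicate 2 held 65.3 CPM of squamous markers, against 3.903 and 2.96 CPM in the other saline D48 libraries. Pancreatic enzyme genes were high in saline D48 replicates 2 and 3 (30237 and 7366 CPM). Without Control replicates 1 and 3 and saline D100 replicate 1, which leaves 1 Control library and keeps saline D48 replicate 2, the counts against Control were 0 in APX3330, 0 at saline D27, 6 at saline D48 and 2 at saline D100. The median log2 fold changes were then 0.19, 0.84, 1.40 and 0.88. Calls also became fewer over all genes in that fit, with 146, 210, 599 and 475 of 19535 genes called higher. The part of these differences in the results was not tested beyond these fits.

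The genes for C1q include the member with the smallest p in the F test, C1qb (adjusted p = 3.91e-05). C1qb lies on chromosome 4 at 136880129 to 136886187, C1qc at 136889804 to 136893065 and C1qa at 136895917 to 136898803 (GRCm38, GENCODE M21, all on the minus strand), so the 3 genes lie within 18675 bases, with gaps of 3616 and 2851 bases. C1qb stood at 48.2, 47.8 and 44.5 CPM in APX3330 colons, 91.5, 60.8 and 63.0 CPM in saline D27, 105.1, 99.7 and 114 CPM in saline D48, and 63.6, 67.6 and 87.4 CPM in saline D100, against 28.9, 37.6 and 33.9 CPM in Control. Every saline library and every APX3330 library thus lay above all Control libraries, and every saline D48 library above all others. The log2 fold change of C1qb against Control was 0.49 ± 0.16 in APX3330, 1.10 ± 0.15 at saline D27, 1.67 ± 0.16 at saline D48 and 1.12 ± 0.16 at saline D100 (± SE, n = 3 against 3, edgeR adjusted p = 0.0457, 0.000369, 1.19e-05 and 0.00015). The APX3330 call was lost without any of 5 of the 6 libraries, with a highest adjusted p of 0.172 without Control replicate 1. It was kept without Control replicate 2.

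C1qa, the chain whose gene lies farthest upstream in the cluster, stood at 56.1, 44.3 and 34.7 CPM in APX3330 colons, 89.1, 63.6 and 58.9 CPM in saline D27, 108, 102 and 112 CPM in saline D48, and 61.7, 64.7 and 84.7 CPM in saline D100, against 31.9, 38.9 and 38.1 CPM in Control. APX3330 and Control libraries overlapped. C1qc stood at 47.4, 44.6 and 40.3 CPM in APX3330 colons, 85.0, 57.2 and 56.8 CPM in saline D27, 99.1, 84.6 and 99.996 CPM in saline D48, and 56.6, 61.0 and 82.2 CPM in saline D100, against 28.0, 38.6 and 36.3 CPM in Control. APX3330 colons lay above Control in every library, but the difference of C1qc was not called (log2 0.36 ± 0.17, adjusted p = 0.174), nor was that of C1qa (0.31 ± 0.18, adjusted p = 0.264, edgeR). In saline colons both were called at each day, with log2 fold changes of 0.96 and 0.95 at D27, 1.56 and 1.46 at D48, and 0.95 and 0.96 at D100 for C1qa and C1qc. Counts of C1qa were 0.957 ± 0.20 of those of C1qb in APX3330, 0.985 ± 0.057 at saline D27, 1.01 ± 0.025 at saline D48, 0.966 ± 0.0073 at saline D100 and 1.09 ± 0.047 in Control (SD, n = 3 each). That ratio did not pass the threshold over the groups in the exact permutation test described with the other ratios (adjusted p = 0.537). Replicates 1 to 3 of APX3330 spanned 1.17, 0.926 and 0.779, a wider spread than in any other group.

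Csf1r, the receptor for the macrophage growth factors, lies on chromosome 18 at 61100598 to 61132149 on the plus strand (GRCm38, GENCODE M21). It stood at 75.5, 67.3 and 54.3 CPM in APX3330 colons, 93.2, 72.4 and 65.7 CPM in saline D27, 113, 95.4 and 137 CPM in saline D48, and 84.3, 91.3 and 124 CPM in saline D100, against 44.3, 59.7 and 59.0 CPM in Control. Saline libraries of every day lay above all Control libraries, and APX3330 overlapped Control. Csf1r was called higher in saline D48 (log2 1.09 ± 0.18, adjusted p = 0.000613) and saline D100 (0.88 ± 0.18, adjusted p = 0.00324), and not in saline D27 (0.51 ± 0.18, adjusted p = 0.0647) or APX3330 (0.27 ± 0.18, adjusted p = 0.343, edgeR).

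With all libraries, the ligands of Csf1r were called against Control in different comparisons, Csf1 higher and Il34 lower. Csf1 averaged 27.2 ± 1.9 CPM in APX3330, 29.2 ± 4.3 CPM in saline D27, 41.1 ± 2.8 CPM in saline D48, 31.2 ± 3.5 CPM in saline D100 and 26.1 ± 3.5 CPM in Control (SD, n = 3 each), and was called higher than Control in saline D48 alone of the 4 (log2 0.65 ± 0.13, edgeR adjusted p = 0.00213). Il34 stood at 4.26, 5.601 and 6.30 CPM in APX3330, 8.48, 6.68 and 6.39 CPM in saline D27, 10.4, 14.3 and 10.9 CPM in saline D48, and 8.69, 7.82 and 6.55 CPM in saline D100, against 12.99, 9.06 and 11.3 CPM in Control. Il34 fell in APX3330 (log2 -1.05 ± 0.21, edgeR adjusted p = 0.0044) and in saline D27 (-0.63 ± 0.21, adjusted p = 0.0467), with no overlap with Control in either. The higher Control values, 12.99 and 11.3 CPM, came from replicates 1 and 3, which held squamous and skeletal muscle transcripts. Control replicate 2 stood at 9.06 CPM. Saline D48 replicate 2 and saline D100 replicate 1, also with squamous transcripts, held the most Il34 of their groups. A fit without Control replicates 1 and 3 leaves 1 Control library, so it cannot decide how far the Il34 calls rest on them. Spi1, which encodes PU.1, stood at 11.3, 10.6 and 7.44 CPM in APX3330, 17.2, 15.6 and 11.2 CPM in saline D27, 22.4, 17.9 and 30.5 CPM in saline D48, and 12.4, 12.6 and 16.9 CPM in saline D100, against 4.37, 10.0 and 5.66 CPM in Control. Spi1 was called higher at the 3 saline days (log2 1.14, 1.83 and 1.07 at D27, D48 and D100) and not in APX3330 (0.55 ± 0.29, edgeR adjusted p = 0.218). Control replicates 1 and 3, with squamous and skeletal muscle transcripts, held less Spi1 than Control replicate 2. How far the Spi1 calls rest on them was not tested.

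Adgre1 lies on chromosome 17 at 57358691 to 57483527 (plus strand) and Cd68 on chromosome 11 at 69664213 to 69666153 (minus strand). Adgre1 stood at 30.5, 28.9 and 21.8 CPM in APX3330 colons, 31.2, 19.1 and 30.0 CPM in saline D27, 46.6, 31.5 and 38.2 CPM in saline D48, and 32.8, 31.7 and 45.2 CPM in saline D100, against 8.17, 14.9 and 12.6 CPM in Control. All APX3330 and saline libraries lay above all Control libraries. The log2 fold changes against Control were 1.19 ± 0.24 in APX3330, 1.17 ± 0.24 at saline D27, 1.70 ± 0.24 at saline D48 and 1.62 ± 0.24 at saline D100 (edgeR adjusted p = 0.00409, 0.00381, 0.000182 and 0.000276). Adgre1 was the member with the highest fold change in APX3330. Its log2 difference from saline D27 was 0.01, with a 95% interval of -0.48 to 0.50. Markers of eosinophils, which also carry F4/80, summed to 3.11 to 3.67 CPM in APX3330, 3.54 to 4.68 CPM in saline D27, 3.27 to 5.17 CPM in saline D48, 4.42 to 5.86 CPM in saline D100 and 0.836 to 2.60 CPM in Control. Of these 5 markers Ear6 had no count in APX3330 or saline D48, and Epx none in Control, and neither had any in saline D100. Their part in the Adgre1 result was not tested.

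Cd68 stood at 17.1, 13.1 and 15.01 CPM in APX3330 colons, 21.6, 17.0 and 22.3 CPM in saline D27, 31.4, 29.7 and 32.8 CPM in saline D48, and 17.2, 14.2 and 23.1 CPM in saline D100, against 12.4, 11.0 and 10.5 CPM in Control. As with C1qa, the saline D48 libraries lay above all others. Cd68 rose in saline D27 (log2 0.85 ± 0.17), saline D48 (1.47 ± 0.17) and saline D100 (0.69 ± 0.17; edgeR adjusted p = 0.00346, 5e-05 and 0.00989), and its difference in APX3330 was 0.42 ± 0.17 (adjusted p = 0.115). The saline D100 call was lost without saline D100 replicate 3 (0.48, adjusted p = 0.0625).

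Lyz2 was the most abundant member also per kilobase of exon, with 192 CPM per kilobase in APX3330, 277 at saline D27, 413 at saline D48, 232 at saline D100 and 116 in Control. C1qa and C1qb, at 103 and 97.8 CPM per kilobase in saline D48, came next, C1qc stood at 49.0, and the other members at 24.9 CPM per kilobase or less there. By library Lyz2 stood at 298, 265 and 196 CPM in APX3330 colons, 433, 326 and 336 CPM in saline D27, 455, 447 and 730.2 CPM in saline D48, and 294, 273 and 349 CPM in saline D100, against 128, 165 and 163 CPM in Control. Its log2 fold change against Control was 0.73 ± 0.20 in APX3330, 1.26 ± 0.20 at saline D27, 1.84 ± 0.20 at saline D48 and 1.01 ± 0.20 at saline D100 (edgeR adjusted p = 0.021, 0.000781, 3.23e-05 and 0.00215). The APX3330 call was lost without APX3330 replicate 1 (0.60, adjusted p = 0.0764), APX3330 replicate 2 (0.70, adjusted p = 0.0664) or Control replicate 1 (0.63, adjusted p = 0.0957).

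The close copy Lyz1 stood at 15.6, 8.002 and 5.56 CPM in APX3330, 22.4, 18.5 and 15.1 CPM in saline D27, 16.4, 79.0 and 50.4 CPM in saline D48, and 9.96, 8.08 and 10.7 CPM in saline D100, against 7.72, 10.9 and 10.6 CPM in Control. Saline D48 replicates 2 and 3, the libraries with pancreatic transcripts, held the high values. Reads shared between the copies could therefore reach Lyz2 in those libraries, which was not tested. Of 10 neutrophil markers 6 were tested. In saline D48 against Control 5 were called higher (median log2 fold change 3.97), in APX3330 against Control 2 higher and 2 lower, and in APX3330 against saline D48 5 lower (median -3.82). The part of neutrophils in the Lyz2 result was not tested. Summed over the 10, which Ly6g dominates (45.6 ± 23.2 CPM in APX3330, 99.0 ± 7.1 CPM in saline D48 and 114 ± 20 CPM in Control; SD, n = 3 each), neutrophil markers came to 25.7 to 64.7 CPM in APX3330, 113 to 124 CPM in saline D27, 141 to 162 CPM in saline D48, 53.1 to 83.4 CPM in saline D100 and 103 to 138 CPM in Control. Mpo, Elane and Ngp had no count in APX3330, Mpo and Elane none in saline D100, and Elane none in Control.

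Mrc1, on chromosome 2 at 14229392 to 14332057 (plus strand), was the member with the largest p in the F test (adjusted p = 0.0274). It stood at 37.3, 36.2 and 30.5 CPM in APX3330 colons, 46.1, 30.4 and 37.5 CPM in saline D27, 53.3, 48.3 and 35.4 CPM in saline D48, and 53.8, 53.5 and 70.9 CPM in saline D100, against 19.5, 40.1 and 36.3 CPM in Control. Only the saline D100 libraries lay clear of all Control libraries, and Mrc1 was called higher there (log2 0.90 ± 0.23, edgeR adjusted p = 0.0114). The call was lost without saline D100 replicate 3 (0.75, adjusted p = 0.0606). The other differences from Control were 0.12 ± 0.23 in APX3330, 0.25 ± 0.23 in saline D27 and 0.52 ± 0.23 in saline D48 (adjusted p = 0.773, 0.482 and 0.109). Markers of blood endothelium and of lymphatic vessels, which also hold Mrc1, were summed together. They came to 156 to 189 CPM in APX3330, 149.6 to 169.7 CPM in saline D27, 203 to 253 CPM in saline D48, 146 to 176 CPM in saline D100 and 151 to 169.9 CPM in Control. The sum does not separate the lymphatic part, and the part of vessels in the Mrc1 result was not tested.

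Itgax, on chromosome 7 at 128129547 to 128150657 (plus strand), stood at 17.97, 14.1 and 15.6 CPM in APX3330 colons, 25.3, 14.7 and 13.5 CPM in saline D27, 30.5, 26.99 and 39.95 CPM in saline D48, and 25.3, 25.1 and 27.3 CPM in saline D100, against 10.0, 14.02 and 10.2 CPM in Control. Itgax rose in saline D48 (log2 1.51 ± 0.22) and saline D100 (1.18 ± 0.22; edgeR adjusted p = 0.000228 and 0.00149), and just missed the threshold in saline D27 (0.65 ± 0.22, adjusted p = 0.051). In APX3330 the difference of Itgax was 0.48 ± 0.22 (adjusted p = 0.163). Dendritic cell markers, Itgax not among them, summed to 35.2 to 50.2 CPM in APX3330, 54.2 to 89.7 CPM in saline D27, 51.0 to 149.9 CPM in saline D48, 55.3 to 74.0 CPM in saline D100 and 33.1 to 41.6 CPM in Control, and none of the 10 was without counts in any group.

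Marco, on chromosome 1 at 120474538 to 120505024 (minus strand), was near the limit of detection in most libraries. Its counts were 12, 3 and 0 in APX3330 colons, 33, 150 and 10 in saline D27, 8, 6 and 60 in saline D48, and 0, 0 and 2 in saline D100, against 0, 5 and 7 in Control. Saline D27 replicate 2 and saline D48 replicate 3 held most of the counts of their groups. Over the summed counts Marco was 14.7-fold higher in saline D27 than in Control (95% interval 8.20 to 28.9, counting error only). It was called in that comparison (log2 3.91 ± 1.24, edgeR adjusted p = 0.0376), but not without saline D27 replicate 2 (2.14, adjusted p = 0.315) or without any of the Control libraries (lowest adjusted p 0.0774). With leukocyte level as a covariate the log2 fold change was -0.81 (adjusted p = 0.891). In saline D100, 2 counts in all gave a ratio to saline D27 of 0.0117 (95% interval 0.00141 to 0.0428).

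**Figure D2:**
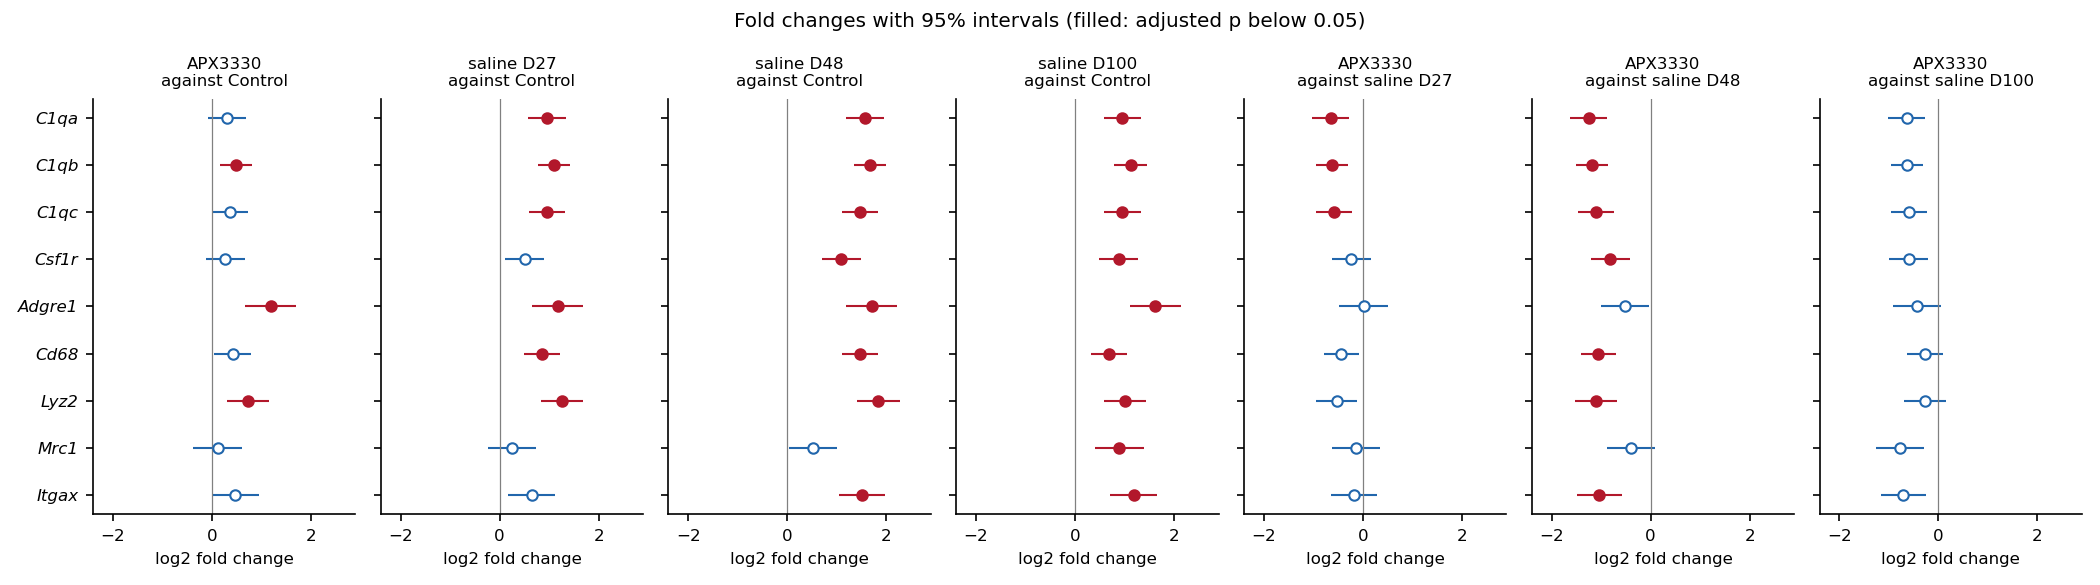
Log2 fold change of 9 macrophage genes (Marco, with few counts, is left out) in 7 comparisons, with 95% intervals from edgeR's quasi-likelihood fit; filled red points passed the adjusted threshold. All points of APX3330 against saline D48 lie left of 0, and those of APX3330 against Control right of it.

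In APX3330 colons C1qa, C1qb and C1qc were called lower than in saline D27 (log2 -0.65 ± 0.18, -0.62 ± 0.15 and -0.59 ± 0.17, edgeR adjusted p = 0.0344, 0.0238 and 0.0428). The other 7 members were not called. These 3 of 10 stand beside 4.37% of all genes tested called lower and 4.71% called higher. The 3 calls were sensitive to libraries: without saline D27 replicate 1, APX3330 replicate 2 or APX3330 replicate 3 none of the 10 was called, and without saline D27 replicate 2 only C1qb was. C1qc was also lost without APX3330 replicate 1 (adjusted p = 0.0534). The fit to these groups alone left 1 call, and with leukocyte level as a covariate there was none.

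Set against saline D48, 7 members were lower in APX3330: C1qa (log2 -1.25 ± 0.18), C1qb (-1.18 ± 0.15), C1qc (-1.10 ± 0.17), Lyz2 (-1.11 ± 0.20), Cd68 (-1.06 ± 0.17), Itgax (-1.03 ± 0.22) and Csf1r (-0.81 ± 0.18), with edgeR adjusted p between 0.00023 and 0.0066. In all genes tested 10.3% were lower and 9.41% higher. Adgre1 (-0.52 ± 0.23, adjusted p = 0.128), Mrc1 (-0.40 ± 0.23, adjusted p = 0.245) and Marco (15 counts in APX3330 against 74 in saline D48) were not called. The same 7 genes were called without any 1 of the 6 libraries. With saline D48 replicate 1 alone in its group the median log2 difference of the 10 genes was -0.89, beside -1.08 with all libraries. With leukocyte level as a covariate 2 were called.

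In APX3330 against saline D100 none of the 10 was called by edgeR after the filter on low counts, although 6 had an unadjusted p below 0.05 (13.2% of all genes tested had). DESeq2's test called 4, edgeR with no filter on low counts 6, and edgeR fitted to these groups alone 1. In the filtered edgeR fit 0.2% of all genes were called lower and 0.305% higher, so few genes of any kind passed there. Shares over all genes in the other fits are not given. The log2 differences, Marco aside, ran from -0.78 (Mrc1, 95% interval -1.26 to -0.29) to -0.27 (Lyz2, -0.69 to 0.14, and Cd68, -0.63 to 0.09). That of C1qb was -0.64 (-0.96 to -0.31, adjusted p = 0.076).

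Among the saline days, the levels were highest at D48 for 8 members, for Mrc1 at D100 and for Marco at D27. In saline D48 against saline D27 no member was called by edgeR after the filter on low counts, although 8 had an unadjusted p below 0.05 (14.2% of all genes tested had). DESeq2's test called 5 and edgeR with no filter 8, and shares over all genes in these fits are not given. In the filtered edgeR fit 0.854% of all genes were called higher and 0.499% lower. Itgax (log2 0.86, 95% interval 0.40 to 1.32, adjusted p = 0.0607) and Cd68 (0.62, 0.27 to 0.98, adjusted p = 0.0794) had the largest positive differences. Without saline D27 replicate 1, 2 members (Itgax and C1qb) were called. In saline D100 against saline D48, Cd68 (log2 -0.79 ± 0.17), Lyz2 (-0.83 ± 0.20), C1qa (-0.61 ± 0.17) and C1qb (-0.55 ± 0.15) were lower (edgeR adjusted p = 0.00712, 0.0118, 0.0312 and 0.0259), where 6.4% of all genes tested were lower and 7.2% higher. Between 1 and 5 members were called when 1 library was left out, with C1qa and C1qb lost without saline D100 replicate 1 or 2 or without saline D48 replicate 1 or 3, and Lyz2 lost without saline D100 replicate 2 or saline D48 replicate 3. With saline D48 replicate 1 alone in its group the median log2 difference of the 10 genes was -0.55, beside -0.53 with all libraries.

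Between saline D100 and saline D27 the C1q genes were not called. C1qb averaged 72.9 ± 12.7 CPM in saline D100 and 71.8 ± 17.1 CPM in saline D27 (SD, n = 3 each), a log2 difference of 0.02 with a 95% interval of -0.30 to 0.34. For C1qc the interval was -0.36 to 0.36. Marco was the member called in this comparison, lower in saline D100 (log2 -6.27 ± 1.57, edgeR adjusted p = 0.0425), and that call was lost without any of the 3 saline D100 libraries or without saline D27 replicate 1 or 2. Of all genes tested 1.45% were lower and 1.63% higher. Mrc1 (0.64, 0.16 to 1.13, adjusted p = 0.128) and Itgax (0.54, 0.08 to 0.99, adjusted p = 0.176) were not called.

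Because CPM values move with the makeup of the tissue, the members were also set against each other within each library. Each ratio of counts was tested over the 5 groups by an exact permutation test over all 1401400 ways to divide 15 libraries into groups of 3, one-sided on the between-group share of the variance of the log2 ratio, and p was adjusted over 17 ratios. This test was added after the data had been examined. Of the members, C1qb had the smallest p and Mrc1 the largest in the F test over these same groups. Ratios to C1qb are therefore not independent of the single-gene results. The ratio of Mrc1 to C1qb was 0.774, 0.757 and 0.686 in APX3330, 0.504, 0.499 and 0.596 in saline D27, 0.508, 0.485 and 0.309 in saline D48, and 0.846, 0.791 and 0.811 in saline D100, against 0.675, 1.07 and 1.07 in Control. It was low in every saline D27 and saline D48 library and higher in every library of the other groups (exact p = 0.000499, adjusted p = 0.00848). The ratio of Csf1r to C1qb averaged 1.40 ± 0.17 in APX3330, 1.08 ± 0.093 at saline D27, 1.08 ± 0.12 at saline D48, 1.36 ± 0.048 at saline D100 and 1.62 ± 0.11 in Control (SD, n = 3 each; exact p = 0.00123, adjusted p = 0.0104).

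Both ratios kept an adjusted p below 0.05 without any 1 of the 15 libraries (adjusted p 0.00051 to 0.0291 for Mrc1 and 0.00646 to 0.0442 for Csf1r, from 100000 random regroupings). Without the libraries with squamous or muscle transcripts Mrc1 to C1qb kept its call (adjusted p = 0.0291) and Csf1r to C1qb did not (adjusted p = 0.21). The ratios of C1qc, Adgre1 and Itgax to C1qb had adjusted p of 0.0671, 0.0671 and 0.0816, and those of Lyz2 and Cd68 0.442 and 0.412. All ratios in this family share C1qb.

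**Figure D3:**
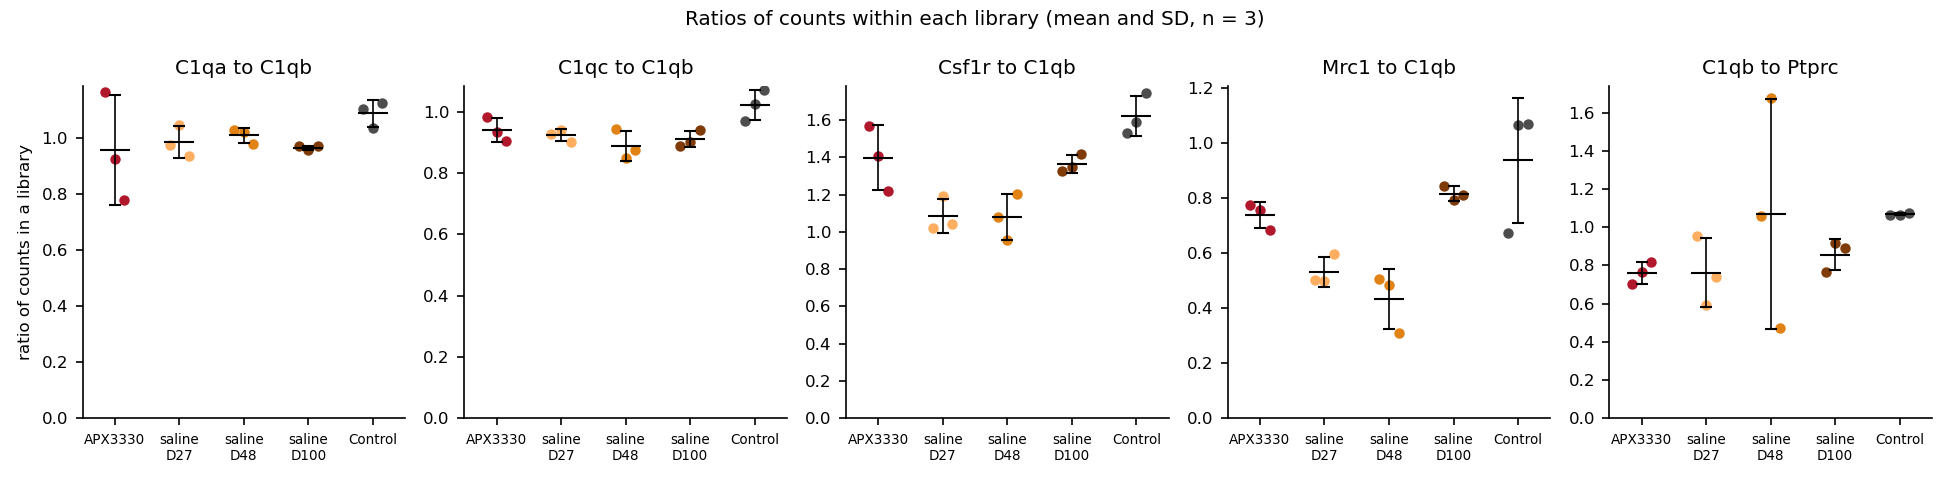
Ratios of raw counts within each of the 15 libraries (linear axes from 0), 3 points per group with the mean and SD in black. Mrc1 to C1qb lies between 0.309 and 0.596 in saline D27 and saline D48 and between 0.675 and 1.07 elsewhere, and C1qb to Ptprc spans 0.475 to 1.68 within saline D48.

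Set against Ptprc, which encodes the leukocyte antigen CD45, none of 9 members had a ratio that passed the threshold (lowest adjusted p 0.143, for Csf1r, in the same exact test and family). Ptprc itself stood at 68.4, 62.5 and 54.3 CPM in APX3330, 96.1, 102 and 85.3 CPM in saline D27, 99.3, 59.4 and 241 CPM in saline D48, and 83.1, 73.7 and 98.3 CPM in saline D100, against 27.1, 35.3 and 31.6 CPM in Control. C1qb to Ptprc was 0.704, 0.764 and 0.820 in APX3330, 0.952, 0.594 and 0.738 in saline D27, 1.06, 1.68 and 0.475 in saline D48, and 0.765, 0.918 and 0.889 in saline D100, against 1.07, 1.06 and 1.07 in Control. Saline D48 replicate 2 lay above all other libraries and replicate 3 below them, while replicate 1 lay within the range of the other groups. B cell markers of the saline D48 libraries summed to 78.7 to 564 CPM, against 65.7 to 73.4 CPM in Control, and their leukocyte sum was highest in replicate 3 at 1055 CPM.

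Over the 15 libraries, the genes whose centred log2 CPM lay nearest to the mean course of C1qa, C1qb and C1qc, out of 13091 candidates, were Fcgr3, Apoe, Sirpa, Fcer1g and Il4ra, with root mean square distances of 0.162, 0.170, 0.172, 0.204 and 0.211 on the log2 scale. Fcgr3 encodes an Fc receptor, Fcer1g the chain through which it signals, Apoe a lipid carrier, Sirpa a receptor for CD47 and Il4ra a chain of the interleukin 4 receptor. Among the other members the distance was 0.203 for Lyz2, 0.218 for Csf1r, 0.232 for Cd68, 0.248 for Itgax, 0.363 for Adgre1, 0.442 for Mrc1 and 1.64 for Marco. For Lyz2, 3 candidates lay closer to the C1q course, for Mrc1 758 did. Fcgr3 averaged 14.5 ± 0.98 CPM in APX3330, 18.3 ± 2.9 CPM in saline D27, 30.0 ± 0.42 CPM in saline D48, 22.7 ± 3.2 CPM in saline D100 and 12.0 ± 2.7 CPM in Control (SD, n = 3 each).

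Other genes of macrophage biology were taken from lists of known function. In saline D48 against Control the shares called higher and lower were 9 and 0 of 14 growth factors and transcription factors, 10 and 1 of 15 monocyte and recruited macrophage genes, 7 and 3 of 16 genes of resident macrophages, 9 and 1 of 12 Fc and scavenger receptors and adaptors, 8 and 2 of 14 phagolysosome genes, 8 and 0 of 10 genes of inflammatory activation, and 5 and 1 of 11 of alternative activation. Their median log2 fold changes were, in that order, 0.66, 1.31, 0.84, 1.40, 0.55, 3.42 and 0.84, beside 0.0043 over all genes tested. Of all genes tested 14.3% were called higher and 13% lower in that comparison. In APX3330 against Control the counts were 0 and 1, 3 and 2, 1 and 2, 2 and 2, 0 and 2, 0 and 1, and 1 and 0. Over all genes tested 7.16% were called higher and 8.18% lower there. In APX3330 against saline D48 the list counts were 0 and 8, 0 and 8, 0 and 5, 1 and 8, 1 and 11, 0 and 8, and 0 and 6. Over all genes tested 9.41% were called higher and 10.3% lower there. A fit without the Control and saline D100 libraries with squamous or muscle transcripts leaves 1 Control library. Its medians in saline D48 against Control were 0.48, 1.22, 0.65, 1.33, 0.45, 2.59 and 0.98 over the genes then tested. With saline D48 replicate 1 alone in its group, the medians in APX3330 against saline D48 were -0.66, -0.91, -1.03, -0.84, -0.45, -2.39 and -0.86. Both fits called fewer genes, in each of these lists and over all genes. The single genes named below are given with all libraries only. How far their differences from Control rest on Control replicates 1 and 3 was not tested.

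**Figure D4:**
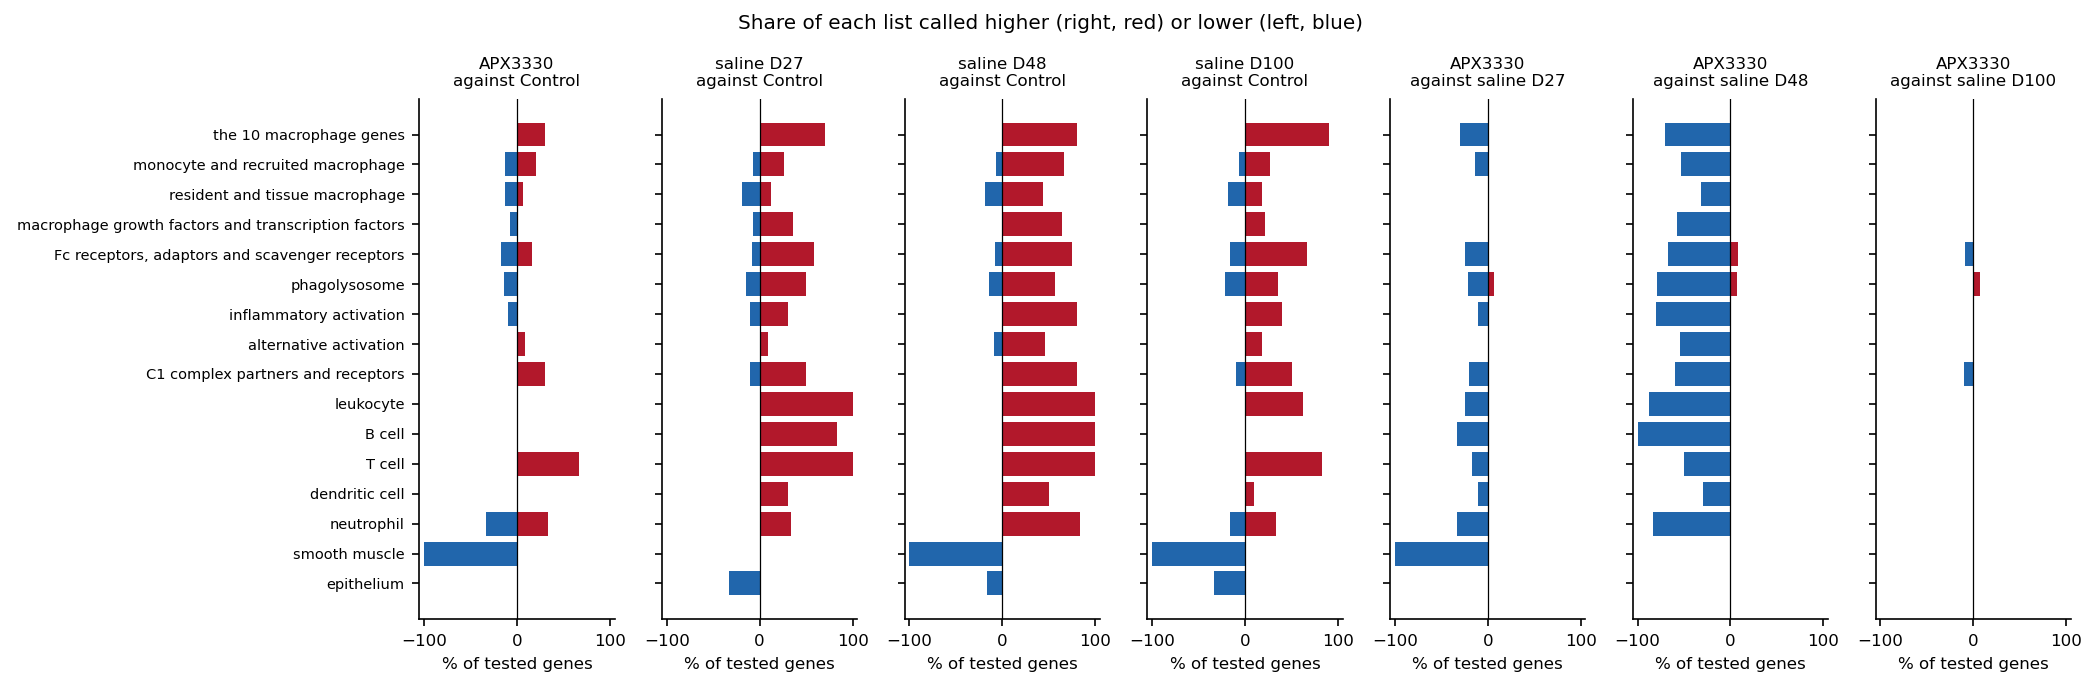
Percent of the tested genes of each list called higher (red, to the right) or lower (blue, to the left) at adjusted p below 0.05 in 7 comparisons. In APX3330 against saline D48, 7 of the 10 macrophage genes and 8 of 10 inflammatory genes lie to the left, and in APX3330 against saline D100 most lists hold no call.

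Of the 7 lists of macrophage biology, inflammatory activation had the highest median log2 fold change in saline D48 against Control (3.42) and the lowest in APX3330 against saline D48 (-2.22). Neutrophil markers went further in both (3.97 and -3.82), and their part in this result was not tested. In APX3330 against Control the inflammatory list had a median of 0.61. Nos2, the inducible nitric oxide synthase, which epithelial cells also make, averaged 8.59 ± 0.76 CPM in APX3330, 25.6 ± 5.2 CPM in saline D27, 80.4 ± 13.7 CPM in saline D48, 17.5 ± 14.8 CPM in saline D100 and 4.93 ± 1.77 CPM in Control (SD, n = 3 each). It rose at each saline day (log2 2.38, 4.03 and 1.83) and was lower in APX3330 than in saline D27 (-1.57, edgeR adjusted p = 0.0331) and saline D48 (-3.23, adjusted p = 0.000321). The cytokine gene Il1b averaged 2.43 ± 0.77 CPM in APX3330 and 25.0 ± 18.5 CPM in saline D48 (log2 -3.35, adjusted p = 0.000499). The chemokine gene Cxcl9 averaged 4.43 ± 2.21 CPM in APX3330 and 28.4 ± 21.8 CPM in saline D48 (log2 -2.68, adjusted p = 0.00418). Acod1, which encodes the enzyme that makes itaconate, was low throughout, at 0.492 ± 0.167 CPM in APX3330 and 5.01 ± 2.54 CPM in saline D48 (log2 -3.33, adjusted p = 0.00637).

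Among genes tied to recruited monocytes, Fcgr1, the high-affinity Fc receptor CD64, averaged 2.95 ± 0.23 CPM in APX3330, 5.16 ± 0.96 CPM in saline D27, 10.3 ± 1.3 CPM in saline D48, 6.16 ± 2.10 CPM in saline D100 and 2.05 ± 0.95 CPM in Control. Fcgr1 rose at each saline day (log2 1.33, 2.32 and 1.58, edgeR adjusted p = 0.00931, 0.000152 and 0.00251). Thbs1, which encodes thrombospondin, was higher in all 4 groups than in Control (log2 0.92 in APX3330, 1.19, 1.31 and 0.75 at D27, D48 and D100). Cd14, a co-receptor for endotoxin, was higher in saline D48 alone of the 4 (0.93, adjusted p = 0.000637), at 101 ± 7.3 CPM against 53.0 ± 15.4 CPM in Control. Clec4e encodes a receptor for cell wall lipids that neutrophils also carry. It averaged 0.134 ± 0.134 CPM in APX3330, 0.623 ± 0.591 CPM in saline D27 and 4.55 ± 2.39 CPM in saline D48. Saline D100 stood at 0.193 ± 0.179 CPM and Control at 0.152 ± 0.135 CPM.

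The resident macrophage list held changes in both directions. Cd163, the scavenger receptor for haemoglobin complexes, fell in all 4 groups against Control, at 6.61 ± 1.47 CPM in APX3330, 9.44 ± 0.60 CPM in saline D27, 7.75 ± 4.52 CPM in saline D48, 5.17 ± 1.73 CPM in saline D100 and 20.9 ± 5.9 CPM in Control (log2 -1.66, -1.14, -1.43 and -2.01, edgeR adjusted p = 0.0051, 0.028, 0.0062 and 0.000935). Gas6, a ligand that bridges dying cells to their receptors, fell at each saline day (-0.53, -0.46 and -0.63). Apoe rose at each saline day (0.86, 1.56 and 0.90) and was lower in APX3330 than in saline D48 (-1.28, adjusted p = 0.000483). Stab1, a scavenger receptor of resident macrophages and endothelium, was higher in saline D48 (1.01, adjusted p = 0.000556). The median of the resident list against Control was -0.30 in APX3330 and 0.24, 0.84 and 0.02 at D27, D48 and D100. A fit without Control replicates 1 and 3 and saline D100 replicate 1 leaves 1 Control library. It gave medians of -0.34, 0.14, 0.65 and -0.12. How far the Cd163, Gas6, Apoe and Stab1 differences rest on Control replicates 1 and 3 was not tested. The alternative activation genes were also mixed: Retnla fell in saline D48 (-1.34, adjusted p = 0.0146), while Ccl22, a chemokine gene, rose at each saline day (between 1.03 and 1.496 on the log2 scale). Tgfb1 (0.97) and Pdcd1lg2 (2.40) rose in saline D48.

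Of the uptake machinery, Fcgr2b, the inhibitory Fc receptor, averaged 27.5 ± 1.9 CPM in APX3330, 41.2 ± 10.3 CPM in saline D27, 53.2 ± 4.7 CPM in saline D48, 54.8 ± 5.5 CPM in saline D100 and 19.3 ± 1.7 CPM in Control, and was lower in APX3330 than at each saline day (log2 -0.59, -0.95 and -0.995, edgeR adjusted p = 0.0254, 0.000739 and 0.0112). B cells also express it. The signalling adaptors Tyrobp and Fcer1g rose at each saline day (Tyrobp 1.46, 2.31 and 1.26; Fcer1g 1.15, 1.83 and 0.98). Lysosomal proteases differed in direction: Lgmn rose at each saline day (0.53, 0.95 and 0.59), whereas Ctsl fell in all 4 groups (-0.75 in APX3330, -0.41, -0.35 and -0.81 at D27, D48 and D100). Cyba, a subunit of the phagocyte oxidase, rose in saline D27 and saline D48 (0.64 and 1.16).

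Of 10 partners and receptors of C1q in the classical complement pathway 8 rose in saline D48 against Control and 3 in APX3330, and 6 were lower in APX3330 than in saline D48. Of all genes tested 14.3% and 7.16% were higher in these comparisons with Control, and 10.3% were lower in APX3330 than in saline D48. The median log2 fold change of the 10 against Control was 0.94 in saline D48 and 0.20 in APX3330. Without Control replicates 1 and 3 and saline D100 replicate 1, which leaves 1 Control library, these medians were 0.84 and 0.27. In APX3330 against saline D48 the median was -0.79, and -0.74 with saline D48 replicate 1 alone in its group. C4b, a substrate of the C1 complex, averaged 158 ± 28 CPM in APX3330, 187 ± 19 CPM in saline D27, 365 ± 12 CPM in saline D48, 234 ± 16 CPM in saline D100 and 98.5 ± 9.2 CPM in Control (SD, n = 3 each; log2 against Control 0.68, 0.92, 1.89 and 1.25). C3, the central complement protein, which epithelium and stroma also make, averaged 207 ± 62 CPM in APX3330, 419 ± 34 CPM in saline D27, 714 ± 159 CPM in saline D48, 401 ± 35 CPM in saline D100 and 134 ± 24 CPM in Control. C3 was lower in APX3330 than at each saline day (log2 -1.02, -1.78 and -0.95, edgeR adjusted p = 0.00874, 6.48e-05 and 0.0424). The proteases of C1, C1ra and C1s1, rose in saline D48 (1.06 and 0.997) and were lower in APX3330 than in saline D48 (-0.98 and -0.84). Receptors for the granulocyte-macrophage growth factor were called in the same direction: Csf2rb and Csf2ra rose in saline D27 (1.01 and 0.67) and saline D48 (1.96 and 1.13) and were lower in APX3330 than in saline D48 (-1.63 and -0.93).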

How the data were processed

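Total RNA of mouse colon was sequenced after column extraction and library preparation with a SMARTER kit, per the labels' protocols. The authors deposited 1 table of whole-number read counts per gene, not normalised. GRCm38 and mm10 are the builds named, per the submitters' processing notes. How reads were aligned and counted, with strand or without, was not given in the sources used here. Groups come from the labels, and each column of the table was tied to its sample through its name.

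Low counts were filtered with edgeR's filterByExpr, leaving 18038 of 56859 genes (23552 had no count). One model in edgeR 4.0.16 (R 4.3.3; TMM scaling, glmQLFit, glmQLFTest) held all 15 libraries and gave 10 two-sided pairwise tests and an F test over the groups, with Benjamini-Hochberg adjustment over all genes tested and calls at an adjusted p below 0.05. SEs were taken as the size of the log2 fold change divided by the root of F, and 95% intervals use the t quantile of the fit's degrees of freedom. Simulated counts with known changes were used to test the model. The members and lists were chosen with earlier results of these data known. All members are described, and of each list at most the 4 genes with the smallest p in the F test, besides Csf1, Il34, Spi1, Ptprc and Lyz1. A gene of the phagolysosome list that this rule selects is not reported here. Fcgr1, Chil3, Clec10a and Trem2 each stand in more than 1 list. Levels per kilobase use the union of GENCODE M21 exons. For 3 libraries against 3, 0.1 is the smallest two-sided exact permutation p. Libraries of a group differed by at least 9.16 in chi-square per degree of freedom, so none was counted as a repeat. Alternatives were DESeq2 1.42.0 (its size factors and its test), no filter, a replicate block, only the groups compared, a leukocyte covariate, 2 sets of libraries with transcripts of other tissues left out, and each library left out. The left-out fits of the other lists and the ratios were added after seeing the data. Intervals on counts cover counting error only. Plots used Python 3.11.15 and matplotlib 3.10.9.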

Additional observations from a re-analysis of the deposited data

How the results depend on the processing

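Numbers here are members called, with the number as reported in brackets. Shares of all genes called in the same fits are not given here, so a change in number may hold for genes at large. With the leukocyte covariate they were 1 in APX3330 against Control (3), 0 in saline D27 against Control (7), 1 in saline D48 against Control (8), 2 in saline D100 against Control (9), 0 in APX3330 against saline D27 (3), 2 in APX3330 against saline D48 (7), 0 in saline D100 against saline D27 (1) and 1 in saline D100 against saline D48 (4), and Marco in saline D27 against Control reversed to -0.81 on the log2 scale; the cause was not tested, and leukocyte genes are also expressed by macrophages. Without the libraries with squamous or muscle transcripts, which leaves 1 Control library assumed to vary like the other groups, they were 0 in APX3330 against Control, 0 in saline D27 against Control, 2 in saline D100 against Control, 0 in saline D100 against saline D27 and 1 in saline D100 against saline D48, and without those with pancreatic transcripts 0 in the last comparison; these fits hold fewer libraries. With no filter on low counts they were 5 in APX3330 against saline D27, 6 in APX3330 against saline D100 (0), 8 in saline D48 against saline D27 (0) and 2 in saline D100 against saline D27; with only the groups compared 1, 1 and 0 in APX3330 against saline D27, APX3330 against saline D100 and saline D100 against saline D27; and with DESeq2's test 4 in APX3330 against saline D100 and 5 in saline D48 against saline D27. The cause was not tested. With 1 library left out they ran from 1 to 3 in APX3330 against Control, 0 to 4 in APX3330 against saline D27, 0 to 2 in saline D48 against saline D27, 0 to 1 in saline D100 against saline D27 and 1 to 5 in saline D100 against saline D48. Replicate numbers did not pair the libraries (a correlation above 0.1 in 2 of 30 pairs, range -0.14 to 0.255); a replicate block left 0 in saline D100 against saline D27. Of 42 calls of single members, 38 were kept with the replicate block, 41 with DESeq2 size factors, 40 with DESeq2's test, 42 without a filter and 7 with the leukocyte covariate, and 211 of 252 when 1 library was left out. At this depth Marco, with 0 to 150 counts per library, is the member whose level counting error limits most.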
